A study of Mus musculus with 7 samples.

Results

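The genes described here belong to the immunoglobulin loci and to the machinery that assembles and handles immunoglobulin: Ighm, Ighd, Igkc, Ighj1, Adam6b, Mzb1, Dntt, Rag1 and Rag2. They were chosen by symbol, as genes of the B lineage that depend on E proteins and that had been seen in these T cells, with the FPKM of the pair where present, so the contrasts in both tables were used to choose them and are given for them as a description without a test. Of the 9 genes, 8 have a row among the 39179 genes of the replicated comparison, 6 of these have a mean of at least 10 scaled counts, and Ighd is not analysed here. Scaled counts are the authors' group means, taken over libraries whose reads had each been divided by that library's size factor.

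Regulatory T cells are CD4 T cells that express Foxp3 and dampen immunity. They were sorted as CD4+TCRb+CD25hi Foxp3+ cells from lymph nodes of C57BL/6 mice at 3 weeks of age, and their mRNA was sequenced. The double-knockout (dKO) group, Id2fl/flId3fl/flFoxp3cre, had 3 numbered libraries, and the control group, Id2fl/+Id3fl/+Foxp3cre, had 2, so controls also carried the Cre and 1 floxed allele of each gene. Cre is expressed from Foxp3, so deletion is directed to cells that have switched Foxp3 on. A pair without numbers, 1 library labelled dKO and 1 labelled control, has its own FPKM table, and because its genotype tags are the reverse of its titles the libraries are named by title.

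B cells build antibody genes by V(D)J recombination, in which the RAG1 and RAG2 proteins cut the DNA beside V, D and J segments and terminal deoxynucleotidyl transferase, the product of Dntt, adds bases at the joints. A rearranged V segment is then transcribed and spliced to a constant gene, while unrearranged loci give germline transcripts that carry a constant region without a V segment. E proteins, the transcription factors that Id2 and Id3 hold in check, bind E-box sequences and act in B cell and T cell precursors on these loci and on recombination genes.

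The authors' deposited table puts 6 of the 8 genes with a row past an adjusted p of 0.05, all higher in dKO (Ighm, Igkc, Ighj1, Adam6b, Mzb1 and Dntt). None was lower, and Rag1 and Rag2 did not pass. Over all 31641 genes with a p, 6.56% passed, 3.38% higher and 3.18% lower. Because the same contrast chose the genes, nothing is read from that count. The log2 ratio of the group means, dKO over control, had a median of 3.24 over the 6 genes and ran from 2.11 for Ighm to 6.34 for Mzb1, against a median of -0.01 over the 15446 genes with a mean of at least 10.

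**Figure D1:**
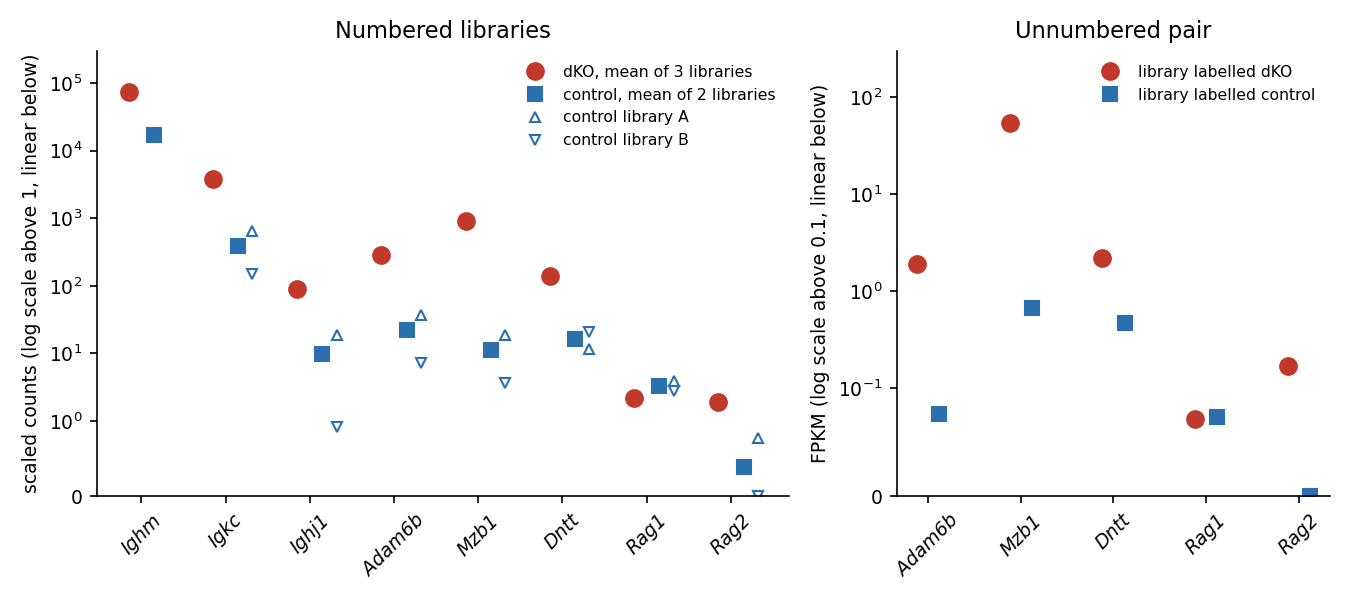
Levels of the 8 genes with a row in the numbered libraries (left, scaled counts) and of the 5 with an entry in the unnumbered pair (right, FPKM), on scales that are logarithmic above 1 and above 0.1 and linear below. Circles are dKO, squares control, and open triangles the reads of the 2 control libraries divided by their size factors. For the 5 genes from Igkc to Dntt the dKO mean lies above both control libraries, while Rag1 and Rag2 lie below 5 scaled counts everywhere.

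The scaled counts summed to 3.99e+07 in dKO and 3.90e+07 in control. Because low means are sums of a few whole steps, the reads of each control library could be recovered for means up to 500 and those of each dKO library for means up to 10. The control libraries are called A and B by the value of 1 read, with size factors of 1.29 and 1.09, since nothing ties them to the replicate numbers; the dKO size factors were 0.929, 0.910 and 0.860. Id2 had 61.1 scaled counts in dKO and 783 in control (adjusted p 1.48e-08 in the authors' deposited table). Id3 had 891 in dKO and 1376 in control (adjusted p 0.209 in the authors' deposited table), and the floxed part of either gene is not named in the labels. In the pair Id2 had 9.69 FPKM in the library labelled dKO and 18.6 in the library labelled control, and Id3 had 221 and 160. Foxp3, which defines the sorted cells, had 10942 scaled counts in dKO and 13481 in control, and Il2ra, which encodes CD25, had 32127 and 32376. The control libraries stand apart in Y-linked genes: Kdm5d had 285 reads in A and 3 in B. Its dKO mean was 2.56 scaled counts, so A differs from B and from dKO in this respect, and values of the listed genes are given with and without each control library where its reads could be recovered.

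Ighm (ENSMUSG00000076617, chr12:113418950-113422730, minus strand, GRCm38) encodes the constant region of the IgM heavy chain. Its mean was 74807.7 scaled counts in dKO and 17317.2 in control, a 4.32-fold ratio. Per kilobase of exon, its level was 50342 scaled counts in dKO and 11654 in control, which placed it 28th in dKO and 138th in control among 22560 protein-coding or immunoglobulin constant genes of at least 300 bases. On the same scale Trac, the constant gene of the T cell receptor alpha chain that these sorted cells carry, had 45498 in dKO and 39983 in control. Ighm RNA was therefore abundant per length in both genotypes, not only in dKO. Its means are too high for the reads of single libraries to be recovered.

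Ighj1 is one of the 4 heavy chain J segments, short exons that lie upstream of Ighm and supply the end of the variable domain. Their sequences are shown because reads are counted over exons this short and because the segments differ in level. They run 5′ to 3′ on the coding strand as annotated in GENCODE M21 on GRCm38, with capitals for the codons of the conserved tryptophan-glycine-any-glycine motif.
Ighj1: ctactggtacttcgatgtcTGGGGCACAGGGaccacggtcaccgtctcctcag
Ighj3: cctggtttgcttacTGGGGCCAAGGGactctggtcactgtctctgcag
Ighj4: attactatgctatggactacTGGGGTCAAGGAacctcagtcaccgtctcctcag
Ighj1 (chr12:113429781-113429833, 53 bases) had 91.1 scaled counts in dKO and 9.79 in control, a log2 ratio of 3.22. The control mean came from 24 reads in A and 1 in B, so the log2 ratio is 2.29 without B. Against the 1 read of B alone the ratio was 99.5, with an exact Poisson 95% interval of 17.9 to 3930 that covers the counting error of that read only. The segments nearer to Ighm had fewer reads at similar length. Ighj2 had 6, 12 and 6 reads in the dKO libraries, against 1 and 2 in control A and B. Ighj3 had 1 read in each dKO library and none in either control library, and Ighj4 had 8, 4 and 7 reads in dKO against 8 and 1 in control. Ighj1, the segment farthest from Ighm and the first after the D segments, therefore held most of the J reads in dKO. All 20 D segment rows were at 0 in both groups, but these rows are only 10 to 29 bases long. The T cell receptor rows Traj1 and Traj14, of 27 and 33 bases, were at 0 in both groups too. The zeros therefore do not show whether the D segments were transcribed.

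Between Ighm and the J segments lie predicted short RNA genes, named here after their values were seen. Gm22175 had 296 scaled counts in dKO and 50.6 in control (adjusted p 1.64e-07 in the authors' deposited table), from 76 reads in A and 46 in B. Gm25747 had 44.1 in dKO and 6.95 in control, from 12 reads in A and 5 in B (adjusted p 0.0031 in the authors' deposited table). Its ratio of 6.34 was 9.64 without A and 4.73 without B, and Gm24022 had 28.0 and 8.60 (adjusted p 0.131 in the authors' deposited table). This interval is intronic to a rearranged heavy chain gene, and its 3 rows had dKO means above control means, as Ighm and Ighj1 did. Whether their reads come from the named short RNAs or from a longer transcript across them was not tested.

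The other heavy chain constant genes gave other values than Ighm. Igha, for IgA, had 69.0 scaled counts in dKO and 507 in control, from 1017 reads in A and 245 in B (adjusted p 0.251 in the authors' deposited table). Ighg2c had 32.0 in dKO and 30.2 in control, Ighg3 had 34.0 and 15.6, and Ighg1 had 26.1 and 3.25, none past the threshold of the authors' deposited table. Ighg1 in control rested on 6 reads in A and 2 in B. Ighm was the 1 heavy chain constant gene of 7 that the authors' deposited table calls.

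**Figure D2:**
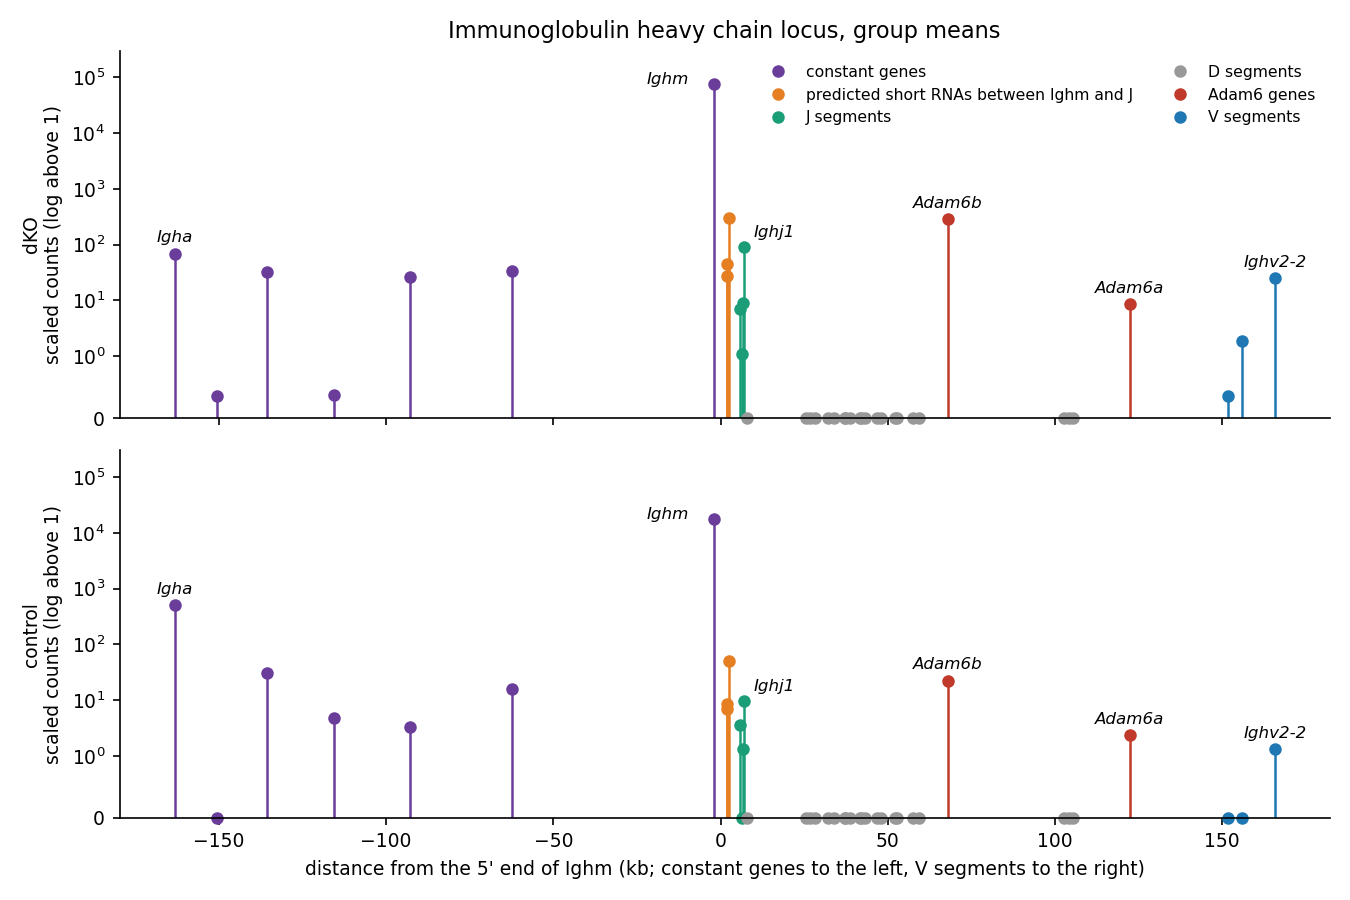
Scaled counts of each annotated gene along the immunoglobulin heavy chain locus, dKO above and control below, against distance in kilobases from the 5′ end of Ighm (log scale above 1). Ighm, the short RNA genes beside it, Ighj1 and Adam6b stand higher in dKO (Ighj1 91.1 and 9.79, Adam6b 284 and 22.3 in dKO and control). The D segments, whose rows are only 10 to 29 bases long, are at 0 in both, and Igha stands higher in control.

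Adam6b (ENSMUSG00000051804, chr12:113489545-113492018, plus strand) is a metalloprotease gene of the sperm surface that in the mouse lies inside the heavy chain locus, between the V segments and most D segments and in the opposite orientation to them. It had 284 scaled counts in dKO and 22.3 in control, a log2 ratio of 3.67. Control A had 48 reads and B had 8, and the log2 ratio was 5.28 without A and 2.93 without B. In the pair Adam6b had 1.89 FPKM in the library labelled dKO and 0.0765 in the library labelled control. Its neighbour and near copy Adam6a had 8.52 scaled counts in dKO and 2.33 in control, with 7, 9 and 7 reads in the dKO libraries against 6 and 0 in control A and B. Reads that match both copies could have been split between them, so the division between Adam6a and Adam6b is uncertain.

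Igkc (ENSMUSG00000076609, chr6:70726435-70726757, plus strand) encodes the constant region of the kappa light chain, on another chromosome than the heavy chain. It had 3772 scaled counts in dKO and 394 in control, a 9.58-fold ratio of the means and 3.26 on the log2 scale. Control A had 823 reads, or 640 scaled counts, and control B had 161, or 147. Both control libraries lay below the dKO mean, and the log2 ratio was 4.68 without A and 2.56 without B. Per kilobase the level was 11678 scaled counts in dKO and 1219 in control. Of the 5 kappa J segment rows, 3 had reads, with a summed level of 2.25 scaled counts in dKO and 0 in control. These rows are 36 to 43 bases long. T cell receptor rows of such length were also low, with Traj51 (43 bases) at 0 in both groups and Traj8 (37 bases) at 0.359 in dKO and 0 in control. Low counts over rows this short do not show how much kappa J RNA was present.

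Expressed antibody chains carry a V segment, so V and constant levels were set side by side. The 114 heavy chain V rows summed to 58.4 scaled counts in dKO and 86.4 in control, and 52 of them were at 0 in both groups. The 104 kappa V rows summed to 34.6 in dKO and 102 in control, with 60 at 0 in both. No row named by symbol as a heavy or kappa V segment passed in the authors' DESeq test by adjusted p; at an unadjusted p of 0.05 that deposited table has 1 heavy V row higher, 1 heavy V row lower and 1 kappa V row lower. In the same libraries Ighm and Igkc stood 4.32 and 9.58 times higher in dKO than in control. The dKO V sums, over rows named by symbol, lay below the control mean on both chains, but not clearly below control B. Heavy V was 115 scaled counts in A and 57.7 in B, and kappa V was 167 in A and 37.5 in B. Without A the heavy V sums nearly coincide, with dKO slightly higher, and so do the kappa V sums, with dKO slightly lower. AC120404.1, a V row of the kappa locus without a V segment symbol, is described below and had 20.1 scaled counts in B and 0 in dKO. With it the kappa V sum in dKO would lie further below B. The heavy V sum in dKO leaned on 1 row, Ighv2-2, which lies near the D segments and had 24.9 scaled counts in dKO and 1.30 in control; without it the sums were 33.4 and 85.1.

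Per 100 scaled counts of Igkc there were 0.918 of kappa V in dKO and 26.0 in control. For rows named by symbol, the control value was 26.1 kappa V reads per 100 Igkc reads in A and 25.5 in B. It came from 215 kappa V reads in A and 41 in B, so that A held 84.0% of them. AC120404.1, a V segment row of the kappa locus described below, is left out and had 36 reads in A and 22 in B. With it the control libraries would be less alike. Without that row, control Igkc and kappa V reads stood in nearly 1 ratio in libraries that differed 4.34-fold in Igkc, against 0.918 in dKO. Per 100 scaled counts of heavy constant genes there were 0.0778 of heavy V in dKO and 0.483 in control. The T cell receptor, which the sorted cells rearrange, served as a check of the same measure. It gave 43.7 in dKO and 44.0 in control for the alpha chain, and 20.0 and 20.3 for the beta chain. These are sums of group means, counted only where a V segment has a row, and no test was made of the ratios.

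A few kappa V rows carried the control signal, mostly in 1 library. Igkv4-57-1 had 66 reads in A and 1 in B and was at 0 in dKO. Igkv4-59 had 50 reads in A and none in B and was also at 0 in dKO, and Igkv5-39 had 0.776 scaled counts in dKO and 30 and 3 reads in control A and B. None of these 3 rows passed in the authors' deposited table. Another V segment row in the kappa locus did pass: AC120404.1, which has no V segment symbol and is not in these sums, was at 0 in dKO and at 24.1 scaled counts in control, from 36 reads in A and 22 in B (adjusted p 1.86e-07 in the authors' deposited table). It overlaps another gene and was named after its value was seen. The lambda V rows summed to 1.46 in dKO and 4.30 in control, and the 1 lambda constant row was at 0 in dKO and 2.47 in control.

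**Figure D3:**
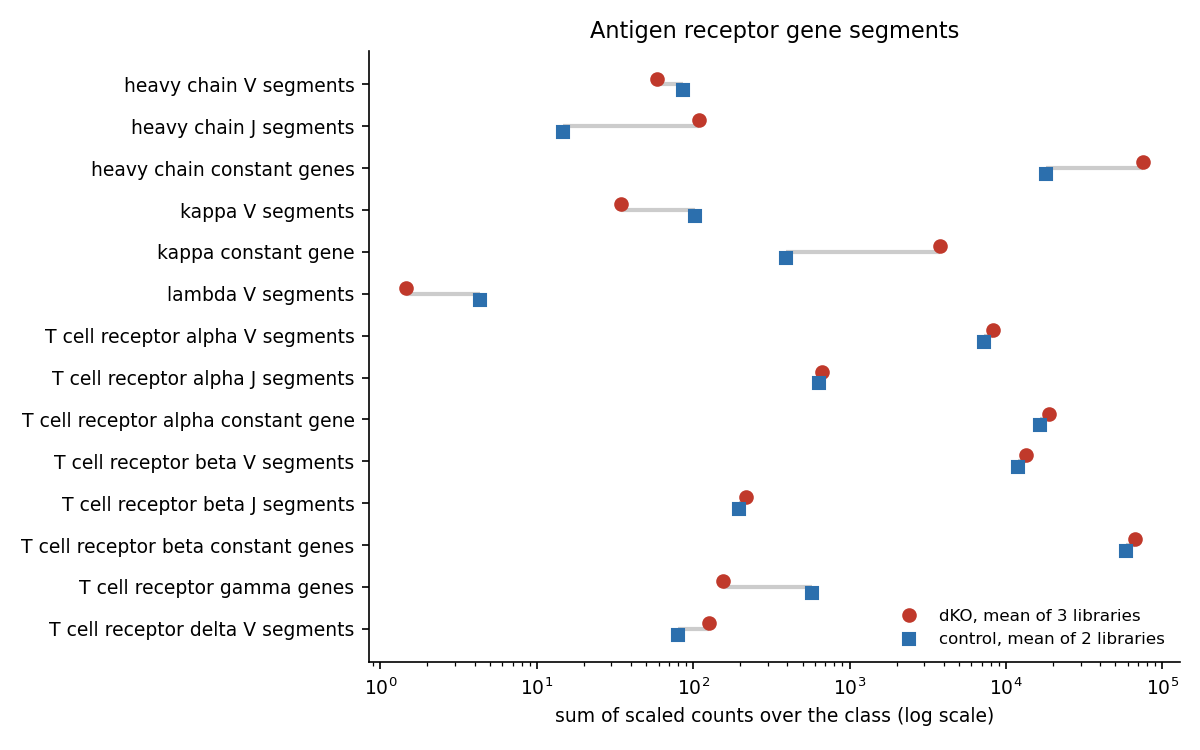
Summed scaled counts (log scale) of antigen receptor gene segments by class, with circles for dKO and squares for control. The kappa constant, heavy constant and heavy J classes lie higher in dKO (kappa constant 3772 and 394, heavy J 108 and 14.7 in dKO and control). The immunoglobulin V classes lie below the mean of the control libraries, while T cell receptor alpha and beta classes nearly coincide. T cell receptor gamma genes summed to 156 in dKO and 576 in control, and delta V segments to 126 and 79.8, with no row of either class called.

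Mzb1 (ENSMUSG00000024353, chromosome 18, 35647266 to 35649367, minus strand) encodes an endoplasmic reticulum protein of marginal zone B cells and plasma cells that aids the assembly of IgM. It had 905 scaled counts in dKO and 11.2 in control, an 81.1-fold ratio and 6.34 on the log2 scale. The control mean came from 24 reads in A and 4 in B, and the log2 ratio was 7.95 without A and 5.60 without B. In the pair Mzb1 had 53.8 FPKM in the library labelled dKO and 0.676 in the library labelled control. Of the nearest genes with a mean of at least 10 on either side, Slc23a1 had 37.6 scaled counts in dKO and 26.1 in control, and Prob1 had 27.0 and 28.4; the authors' deposited table calls neither.

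Dntt (ENSMUSG00000025014, chr19:41029275-41059523, plus strand) is normally active in B and T cell precursors during rearrangement and silent in mature lymphocytes. It had 140 scaled counts in dKO and 16.4 in control, a log2 ratio of 3.10. Its 15 reads in A and 23 in B made it the exception among the 5 genes above the threshold with recovered control reads, as the other 4 (Igkc, Ighj1, Adam6b and Mzb1) were higher in A than in B. The log2 ratio of Dntt was 2.74 without A and 3.59 without B. In the pair it had 2.22 FPKM in the library labelled dKO and 0.466 in the library labelled control, summed over its 2 transcripts. Of its neighbours, Blnk had 8.59 scaled counts in dKO and 13.8 in control and Tm9sf3 had 8815 and 8350, and the authors' deposited table calls neither.

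Rag1 (chr2:101638282-101649501, minus strand) and Rag2 (chr2:101624718-101632529, plus strand) encode the subunits of the enzyme that starts V(D)J recombination and share 1 short locus in opposite orientation. Rag1 had 4, 1 and 1 reads in the dKO libraries, against 5 and 3 in control A and B, with means of 2.19 and 3.32 scaled counts. Rag2 had 1, 1 and 3 reads in the dKO libraries, against 1 and 0 in control, with means of 1.89 and 0.389. The groups overlapped for Rag1. For Rag2, both had a library with 1 read; divided by size factors, the dKO libraries were at 1.08, 1.10 and 3.49, against 0.777 and 0 in control, from 5 reads in dKO and 1 in control. The authors' deposited table calls neither gene. At this depth a difference in either gene was not detectable, and both rows overlap another gene, B230118H07Rik, which had 12.5 scaled counts in dKO and 24.1 in control. In the pair Rag1 had 0.0711 FPKM in the library labelled dKO and 0.0734 in the library labelled control, and Rag2 had 0.168 in the library labelled dKO and was listed at 0 in the other. Dntt and the recombinase act together in precursors. Per kilobase, Dntt stood at 65.9 scaled counts in dKO and 7.69 in control, Rag1 at 0.331 and 0.502, and Rag2 at 0.551 and 0.114.

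E proteins bind the E-box, spelled CANNTG, which reads as CANNTG on both strands. The 250 bases before the RefSeq start are shown for Adam6b and Dntt, both called higher in the authors' deposited table, 5′ to 3′ on the gene's strand, with E-boxes in capitals (RefSeq, GRCm38.p6).
Adam6b, chr12:113489315-113489564, plus strand: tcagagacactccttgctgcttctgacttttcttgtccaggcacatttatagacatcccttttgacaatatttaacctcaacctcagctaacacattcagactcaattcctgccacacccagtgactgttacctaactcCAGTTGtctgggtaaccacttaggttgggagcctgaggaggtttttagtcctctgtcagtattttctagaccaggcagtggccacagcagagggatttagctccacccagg
Dntt, chr19:41029025-41029274, plus strand: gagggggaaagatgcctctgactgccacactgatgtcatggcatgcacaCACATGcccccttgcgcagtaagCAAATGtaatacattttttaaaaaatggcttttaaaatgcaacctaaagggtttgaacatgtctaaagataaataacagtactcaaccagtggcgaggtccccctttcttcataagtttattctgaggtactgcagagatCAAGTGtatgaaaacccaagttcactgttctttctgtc
The Adam6b window holds 1 E-box and the Dntt window holds 3, all marked above. Particular E-box spellings were also searched on both strands. Neither window holds CAGCTG, which is found in 13.0% of 32841 upstream windows of the same length. Neither window holds the spelling CAGGTG or its reverse complement either, which 17.2% of the windows hold. The Rag1 window, of a gene at a few reads, holds 3 E-boxes, 1 of each of those spellings among them, and the Rag2 window holds 1. Any E-box is found in 66.2% of the windows. The Mzb1 window is not used here. An E-box in such a window is common, and a match describes the letters only.

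Of the 9 genes, 5 had an entry in the pair's table, and 3 of them (Mzb1, Adam6b and Dntt) had a log2 ratio of 1 or more with a pseudocount of 1 FPKM. These log2 ratios, library labelled dKO over library labelled control, were 5.03 for Mzb1, 1.43 for Adam6b and 1.13 for Dntt. Over the 21607 genes matched, 1.56% reached that size, as did 2.67% of the 8681 genes with at least 5 FPKM in either library, while 1.62% and 3.16% had a log2 ratio of -1 or less. By the genotype tags of the pair every one of these signs would be turned, and the choice of the genes used these values, so nothing is read from the count. With 1 library in each group there is no replicate check. The gene whose 2 log2 ratios lay nearest to those of Mzb1, among 10130 candidates, was Gzma, a granzyme of cytotoxic lymphocytes, with 5.07 in the numbered libraries and 4.58 in the pair, at a distance of 1.35. Nearest to Adam6b was Endou, with 3.83 and 1.17 (distance 0.306), and nearest to Dntt was Nos1, a nitric oxide synthase, with 2.91 and 1.23 (distance 0.217).

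Of 18 genes of V(D)J recombination, end joining and somatic mutation, the authors' deposited table calls 5 higher and none lower, and the median log2 ratio was 0.17. Over all 31641 genes with a p it calls 3.38% higher and 3.18% lower, shares that stand beside this count and those of the lists below. As the lists were chosen with earlier results of these data known, the counts are a description. Xrcc6, which encodes the Ku70 subunit of end joining, had 3750 scaled counts in dKO and 2035 in control (adjusted p 1.2e-08 in the authors' deposited table). In the authors' deposited table the log2 ratio was 0.76 for Hmgb2, a DNA-bending cofactor of the recombinase, and 0.64 for Msh6, of mismatch repair. The rows of Xrcc6 and Msh6 overlap another gene.

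Of 16 tested genes of the pre-B and B cell receptor and its signalling, the authors' deposited table calls 1 higher and none lower, with a median log2 ratio of -0.12. The gene that rose was Syk, a kinase of antigen receptor signalling, with 567 scaled counts in dKO and 175 in control (adjusted p 9.54e-19 in the authors' deposited table). The surrogate light chain genes that pair with the IgM heavy chain in pre-B cells had low counts: Vpreb1 had 13.6 in dKO and 14.2 in control, and Igll1 had 2.62 and 2.15. Cd79a, a signalling chain without which IgM does not reach the B cell surface, had 51.1 in dKO and 71.2 in control, and its partner Cd79b had 1006 and 894, neither past the threshold of the authors' deposited table. Ighm thus stood 4.32-fold higher in dKO in libraries where its receptor partners did not pass.

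Of 16 B lineage transcription factors, the authors' deposited table calls 3 higher and 1 lower, with a median log2 ratio of 0.60. Over all genes with a p the shares were 3.38% and 3.18%. Cbfa2t3, a corepressor, had 1089 scaled counts in dKO and 80.7 in control, Irf8 had 3775 and 1217, and Ikzf3, which encodes Aiolos, had 20093 and 9433, and all 3 rows overlap another gene. Cbfa2t3 differed between the control libraries, with 127 scaled counts in A and 33.9 in B, so that its ratio of 13.5 becomes 32.2 without A and 8.54 without B. Pou2af1, a B cell coactivator of immunoglobulin promoters, had 266 and 451, which the authors' deposited table gives as -0.76 on the log2 scale. Ebf1 had 14.8 in dKO and 6.11 in control and Pax5 had 6.28 and 1.69, low counts for the factors that specify B cells, and neither passed in the authors' deposited table. Among 9 E and Id genes, the authors' deposited table calls 2 higher (Lyl1 at a log2 ratio of 1.57 and Tcf3, which encodes E12 and E47, at 0.67) and 1 lower (Id2), with a median log2 ratio of 0.57.

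Of 24 thymic E protein targets and T cell precursor genes, the authors' deposited table calls 1 higher and 2 lower, with a median log2 ratio of 0.14. The one that rose was Dntt itself. Themis, a regulator of T cell receptor signalling in the thymus, fell by 0.75 (log2, from the authors' deposited table), and Ptcra, the pre-T cell receptor chain, had 0.747 scaled counts in dKO and 0.458 in control. Of 14 T cell identity genes, the authors' deposited table calls 1 higher, Cd247 at a log2 ratio of 0.58, with a median of 0.18.

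Immunoglobulin RNA can enter a T cell sort with B cells or plasma cells, so their markers are given for the same libraries; in bulk RNA, fewer cells of a type and less RNA per cell cannot be told apart. Of 14 B cell markers, the authors' deposited table calls none higher and 1 lower (Cd72), the same counts as at its unadjusted p of 0.05. The list summed to 1690 scaled counts in dKO and 1825 in control, with a median log2 ratio of -0.13. Ms4a1, which encodes CD20, had 1.47 in dKO and 1.76 in control, near 0 in both groups. Other markers of the list were well above 0: Cd79b had 1006 in dKO and 894 in control, Cd72 had 289 and 616, and Cd22, an inhibitory B cell receptor, had 266 and 172. Among low ones, Spib had 21.8 in dKO and 8.67 in control and Ebf1 had 14.8 and 6.11. In the pair Ms4a1 had 0.207 FPKM in the library labelled dKO and 0.0427 in the library labelled control, Cd22 had 1.89 and 0.694, and Cd79b had 39.2 and 25.3. The part of B cells in the immunoglobulin levels was not tested.

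Of 11 plasma cell markers, the authors' deposited table calls 3 higher and none lower (6 and 1 at its unadjusted p of 0.05). Over all genes with a p it calls 3.38% higher and 3.18% lower. The list summed to 22627 scaled counts in dKO and 15830 in control, with a median log2 ratio of 0.47. The 3 called higher were Slamf7, Prdm1 and Creld2, with log2 changes of 1.54, 0.80 and 0.44 in the authors' deposited table. Prdm1 encodes Blimp1, which regulatory T cells also make. Igj, the J chain gene of secreted IgM and IgA, had 133 in dKO and 70.3 in control (adjusted p 0.234 in the authors' deposited table). Sdc1, which encodes CD138, had 28.0 and 23.4, and Tnfrsf17 was at 0 in dKO and 1.24 in control. Derl3 had 101 in dKO and 159 in control, Fkbp11 had 12.3 and 17.8, and Txndc5 had 2618 and 2744, none past the threshold of the authors' deposited table. The called plasma cell markers were thus higher in dKO, as Ighm, Igkc and Mzb1 were. Markers that did not pass had dKO means on both sides of control. Xbp1 had 6388 scaled counts in dKO and 3750 in control, and Irf4 had 9389 and 6590. Igj and Sdc1 also had higher dKO means, while Derl3, Fkbp11, Txndc5 and Tnfrsf17 had lower ones. The share of plasma cells in the levels of Ighm, Igkc and Mzb1 was not tested.

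Control A and B were compared in the same way, as A held more Igkc, Ighj1, Adam6b and Mzb1. Over 6881 genes with control means between 10 and 500, the ratio of A to B had a median of 0.975 and its 5th and 95th percentiles were 0.510 and 1.95. The ratio was 4.34 for Igkc and 5.10 for both Adam6b and Mzb1, and 0.799% of those genes reached 4. Summed over the markers whose reads could be recovered, it was 1.16 for B cells (12 genes) and 1.30 for plasma cells (6 genes). Igj alone had 129 reads in A and 44 in B. The part of these, and of the Y-linked difference, in the control levels of the immunoglobulin genes was not tested.

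Lists for other cells were examined as well. Of 12 plasmacytoid dendritic cell markers, the authors' deposited table calls 2 higher (Atp1b1 at a log2 ratio of 1.74 and Runx2 at 0.95) and 1 lower (Pacsin1), with Siglech at 15.6 scaled counts in dKO and 13.7 in control. Of 7 thymocyte markers 1 fell, and no cytotoxic marker of 4 and no myeloid marker of 6 passed in the authors' deposited table, where 1 myeloid marker was lower at an unadjusted p of 0.05 and no cytotoxic one was. The median log2 ratios were 0.06, 0.05, 0.44 and -0.09 in that order. Of 10 regulatory T cell markers the authors' deposited table calls 1 higher (Ctla4, at a log2 ratio of 1.01), with a median of 0.04.

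**Figure D4:**
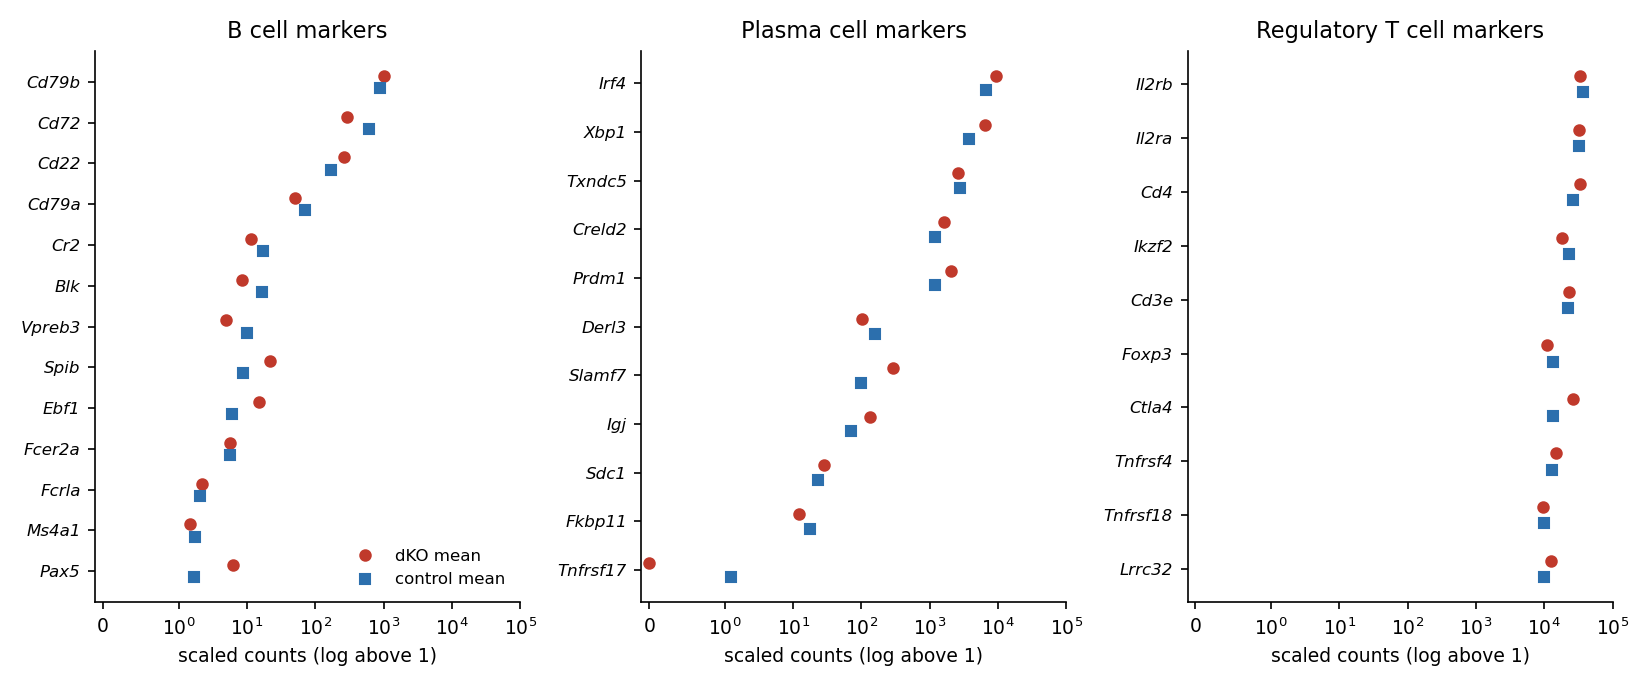
Scaled counts (log scale above 1) of 13 B cell, 11 plasma cell and 10 regulatory T cell markers, with circles for dKO and squares for control. The B cell markers lie on both sides of equal levels with Ms4a1 below 3, 3 plasma cell markers (Slamf7, Prdm1, Creld2) rose in dKO, and regulatory T cell markers are high in both groups.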

How the data were processed

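Messenger RNA of sorted mouse lymph node regulatory T cells was measured in 7 libraries. For 5 numbered libraries (3 dKO, 2 control) the authors' deposited table holds a signal per gene, called scaled counts here: reads divided by a size factor and averaged per group. Its deposited log2 ratios and p-values (raw and adjusted) are per gene. Per the submitters' processing notes, RSEM and DESeq were used on mm10 (GRCm38), without versions. The other 2 libraries have deposited FPKM values per RefSeq transcript from Cuffdiff, given as 0.0.6, after TopHat 1.4.0 on mm9, per the submitters' processing notes. FPKM were summed per gene, and 97.5% of 27901 entries matched 1 gene. No source used here says whether the counting kept strands apart.

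The members and gene lists were chosen with earlier results of these data known. The group means carry no SD. Called means an adjusted p under 0.05 in the authors' deposited table, and only such genes are said to have risen or fallen. The labels do not say that each library came from a separate animal; p-values measure only the spread between libraries, which may be technical. Of each list, members past the threshold were named, up to 4 with the smallest adjusted p, and with none the 2 highest; a few genes that this rule takes are not reported here. Defining markers, receptor chains and a few others named besides (such as Vpreb1, Cd79a, Cd79b, Ebf1, Pax5, Ptcra, Igj, Sdc1, Tnfrsf17 and Siglech) were chosen after their values were seen. Gene names came from the tables; 135 of 139 listed symbols were found. The nearest pattern is the smallest Euclidean distance over both log2 ratios among genes with a mean of at least 50 scaled counts. Per-kilobase levels divide scaled counts by exon length.

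Whole reads per library were solved from low group means as sums of steps within 0.0001, uniquely for 100% of control means up to 200 and for 99.9% from 200 to 500, and for 99.7% of dKO means from 5 to 10. Of 3600 simulated means, 3581 had a unique solution, and 100% of those were right. Python 3.11.15, numpy 2.4.6 and pandas 2.3.3 were used. Alternatives changed the scaling, the pseudocount, the genes adjusted over, the threshold and the libraries; leaving out a control library for Cbfa2t3 and Gm25747 was added after seeing the data.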

Additional observations from a re-analysis of the deposited data

How the results depend on the processing

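The count of 6 genes past the threshold kept its value when adjusted over genes at or above a mean of 10, without overlapping genes and at an adjusted p of 0.01. Of 85 alternative counts, 70 were within 1.5 times, 15 moved and none reversed. Without genes that overlap another, the rises were 2 in place of 5 (V(D)J), 0 of 3 (B lineage factors), 1 of 2 (E and Id genes, and plasmacytoid dendritic cell) and 0 of 1 (T cell identity, and regulatory T cell), and the falls were 0 in place of 2 (thymic targets) and 0 of 1 (B cell, and thymocyte), as called rows were left out. At an adjusted p of 0.01 the plasma cell rises were 1 in place of 3, plasmacytoid rises 1 and falls 0, and B cell falls 0. With genes at or above a mean of 10, 1 plasma cell marker fell in place of 0. In the pair, 1 gene (Mzb1) in place of 3 had a log2 ratio of 1 or more with a pseudocount of 5 FPKM. With a pseudocount of 0.1 FPKM the count was 4. The gene added was Rag2, at 1.42, from 0.168 FPKM in the library labelled dKO and 0 in the other. The log2 ratio of the group sums was 0.04 and the median log2 ratio -0.01, and rescaling to either moved each log2 ratio by that size. No paired analysis was possible because the deposited values are group means whose recovered libraries carry no replicate number. The count test with edgeR and leaving out single dKO libraries (beyond Rag1 and Rag2) were not run, since dKO means above 10 could not be resolved into libraries. Rag1 and Rag2 rest on at most 8 reads per group, and Ighj1 in control B on 1 read.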
